A study of Mus musculus with 6 samples.

Results

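The members are the Hox, Cdx, Pbx, Meis, Irx, Dlx, Lhx, Msx and Six-family homeobox genes of day 5 mouse embryoid bodies, chosen by name: every probe set whose gene name in the authors' deposited comparison table starts with one of these family names and a number. That gave 43 probe sets for 29 genes, out of 22526 probe sets and 12290 named genes tested. The cells came from the mouse embryonic stem cell line CGR8, grown as embryoid bodies (suspended clumps that begin to form germ layers), and flow cytometry separated the fractions on day 5. One fraction carried both the chemokine receptor CXCR4 and FLK-1, the VEGF receptor encoded by Kdr (CXCR4+/FLK-1+, 3 samples). It was set against the fraction carrying neither (CXCR4-/FLK-1-, 3 samples), and no treatment was named for either. RNA was measured on Affymetrix mouse arrays, 1 array per sample. The labels name 1 parental line, CGR8, and call the replicates biological, while the series text speaks of RNA pools without saying what was pooled. The p-values measure the spread between these samples.

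Homeobox genes encode transcription factors that bind DNA through a homeodomain. Hox genes lie in clusters whose order follows the place of expression along the body axis, with low paralog numbers anterior and high numbers posterior, and in the early embryo the low numbers come on first. Cdx factors act upstream of the Hox clusters, and Pbx and Meis proteins, of the TALE class, bind DNA together with Hox proteins. Six-family factors work with Eya proteins in progenitors of muscle, kidney and sense organs, Lhx factors carry LIM domains that bind Ldb proteins, and Msx genes are targets of BMP signalling.

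The 29 genes are those analysed of 78 that the RefSeq gene table lists in these families. The values are linear ratios. The authors divided each probe set by its median over the 3 CXCR4-/FLK-1- arrays, so a ratio compares arrays and gives no level of a transcript, and fewer cells of a type cannot be told apart from less RNA per cell. The flag score, taken to count the arrays that detected a probe set, was 6 for 19 of the 43 probe sets (44.2%) and for 62.8% of all probe sets. It was 2, the lowest score among all probe sets tested, for 7 of them. The comparison table holds 22584 of the 45101 probe sets with values. Family genes it does not name, all Hoxc genes among them, were not analysed. Both arrays of replicate 1 stood apart, with a median log2 ratio of -0.413 in the CXCR4+/FLK-1+ and -0.329 in the CXCR4-/FLK-1- array, against 0 to 0.108 on the other 4. The sort was visible in Cxcr4 and Kdr, 5.55-fold and 6.17-fold higher in CXCR4+/FLK-1+ cells (limma adjusted p = 0.342 and 0.664). The groups did not overlap, but CXCR4-/FLK-1- array 2 had the highest ratios of its fraction. Kdr stood there at 3.929, against 1.0 and 0.75 on arrays 1 and 3, and Cxcr4 at 1.954, against 0.783 and 1.0. The lowest Kdr ratio on a CXCR4+/FLK-1+ array was 4.943.

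In the fit that ignored the replicate numbers, Six-family genes gave the clearest differences, Six2 towards higher and Six4 towards lower values in CXCR4+/FLK-1+ cells. Still, 0 of the 43 probe sets passed the adjusted threshold of 0.05 (limma, Benjamini-Hochberg over all 22526 probe sets, smallest adjusted p = 0.778). Over all probe sets that share was 0.0% as well. At an unadjusted p under 0.05, 2 member probe sets were higher (4.65%, against a background of 1.38% of all probe sets) and 5 were lower (11.6%, against 3.49%). The replicate numbers were taken to pair the samples, though numbers 2 and 3 were less clearly told apart than number 1. With the replicate number as a block 7 were higher (16.3%, against 5.02%) and 8 lower (18.6%, against 7.24%), with 0 past the adjusted threshold (smallest adjusted p = 0.196, Cdx2). These 8 lower take in all 3 probe sets of Six4, and the 7 higher take in both of Msx2. More than 1 of the 5 lower without the block also belonged to Six4, so these counts repeat genes. With array weights, which ran from 0.182 to 6.65, the unadjusted counts were 7 and 8, against backgrounds of 6.55% and 8.17%, and 1 member passed the adjusted threshold, as did 0.83% of all probe sets. Without both arrays of replicate 1 the unadjusted counts were 4 and 6, against backgrounds of 3.61% and 5.7%. All 3 CXCR4+/FLK-1+ values lay above all 3 CXCR4-/FLK-1- values for 3 member probe sets (background 4.61%) and below them for 6 (background 5.38%), of which 3 belong to Six4 alone. By the p-values of the authors' deposited table, 1 member probe set was higher and 1 lower at a p under 0.05, where 1.35% and 1.98% of all its probe sets were. Of the 29 genes, each by 1 probe set, 17 had a higher and 12 a lower mean, with a median log2 difference of 0.13, against 0.045 over all named genes. Of the 43 probe sets 25 had a higher mean (58.1%, against 51.7% of all).

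**Figure D1:**
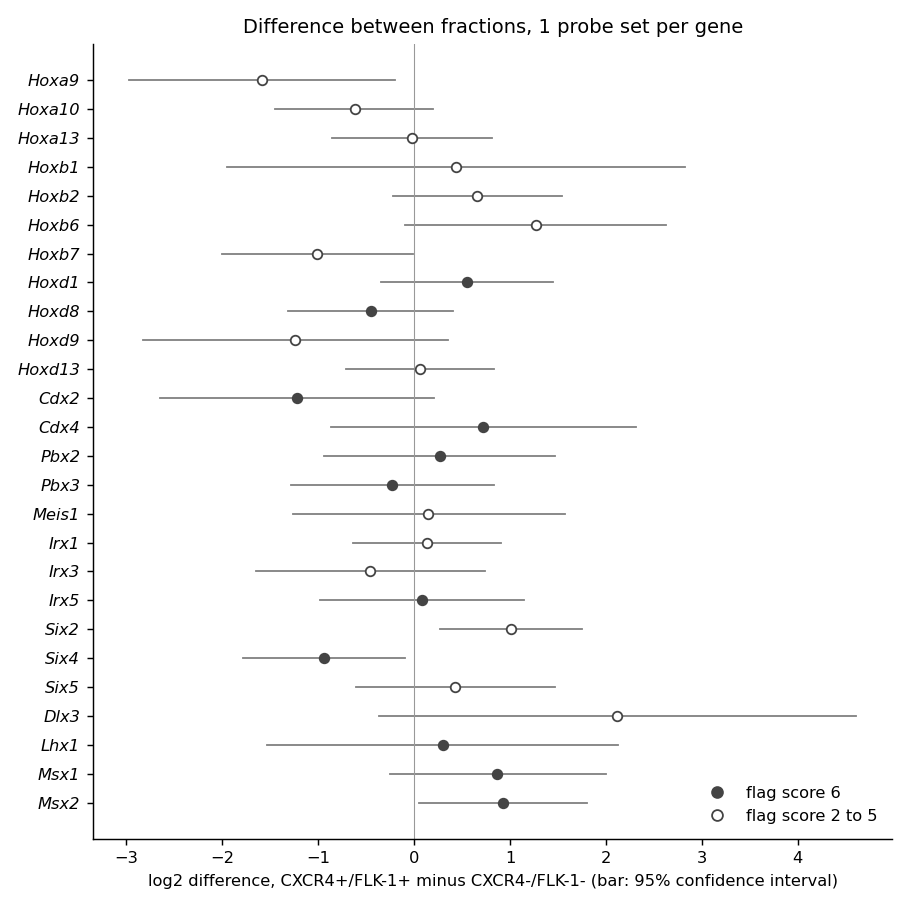
Log2 difference between CXCR4+/FLK-1+ and CXCR4-/FLK-1- arrays (x axis) for 26 of the 29 genes, with 95% confidence intervals from limma (n = 3 arrays per group). Filled points had a flag score of 6 and open points one of 2 to 5. The intervals of Hoxa9, Hoxb7, Six2, Six4 and Msx2 lay off 0 before adjustment.

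Six2, which keeps nephron progenitors of the kidney undifferentiated, had ratios of 1.924, 2.507 and 2.257 on the CXCR4+/FLK-1+ arrays 1 to 3, against 1.0, 1.378 and 0.966 on the CXCR4-/FLK-1- arrays. The groups did not overlap, and the 3 pairs differed by a log2 of 0.94, 0.86 and 1.22. Its ratio was 2.01-fold higher, with 95% confidence limits of 1.2 and 3.37 (log2 difference 1.01, SE 0.324; limma adjusted p = 0.819). The authors' deposited table gave it a p of 0.00961, the smallest of any member there.

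Six4, which binds muscle gene promoters, was read by 3 probe sets, all with a flag score of 6 and all lower. The one standing for the gene had ratios of 0.362, 0.551 and 0.748 on the CXCR4+/FLK-1+ arrays, against 0.905, 1.0 and 1.157 on the CXCR4-/FLK-1- arrays. The second had 0.203, 0.452 and 0.438, against 0.667, 1.026 and 1.0, and the third 0.415, 0.789 and 0.803, against 0.961, 1.0 and 1.215. In none of the 3 did the groups overlap. Their log2 differences were -0.94 (SE 0.368), -1.36 (SE 0.418) and -0.72 (SE 0.373), with limma adjusted p-values of 0.957, 0.778 and 1.0. They share a gene and are not independent. The authors' deposited table gave the second a p of 0.0484.

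Six5, which in humans neighbours the myotonic dystrophy kinase gene, had ratios of 1.018, 1.488 and 2.507 on the CXCR4+/FLK-1+ arrays, against 1.0, 0.864 and 1.806 on the CXCR4-/FLK-1- arrays, at a flag score of 2. The groups overlapped (log2 difference 0.43, SE 0.454), though each pair was higher. Of the 4 Six-family genes 2 had a higher and 2 a lower mean, with a median of -0.25. That median was 0.04 without CXCR4+/FLK-1+ array 1 and 0.05 with array weights.

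**Figure D2:**
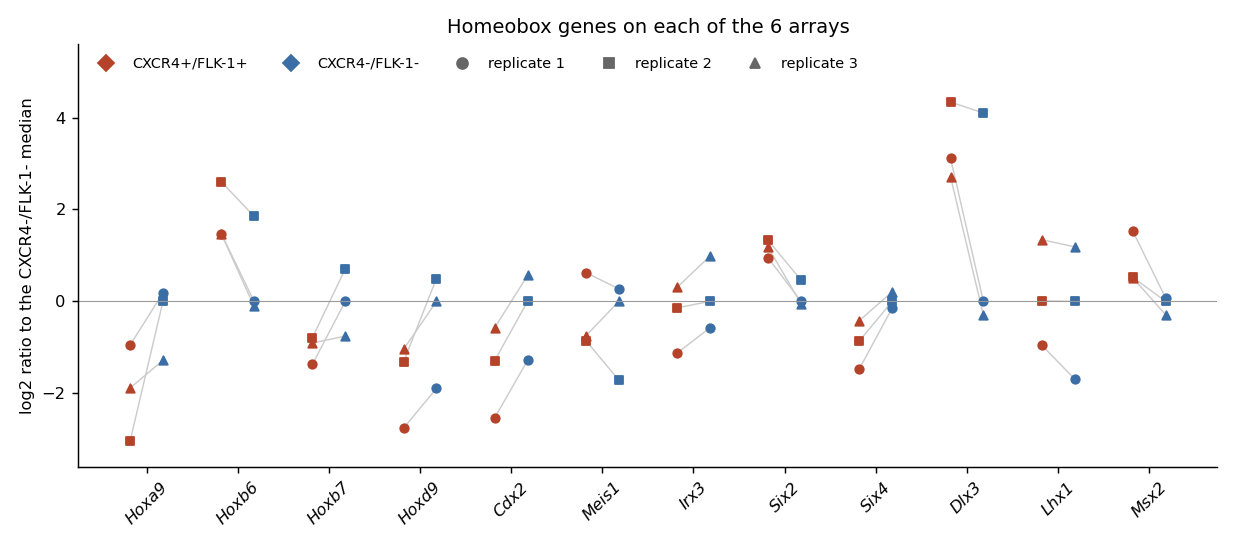
Log2 ratio to the CXCR4-/FLK-1- median (y axis) of 12 genes on each array, CXCR4+/FLK-1+ in red and CXCR4-/FLK-1- in blue, with lines joining arrays of 1 replicate number. For Six2, Six4, Hoxb7 and Msx2 the colours do not overlap, while for Cdx2 the lines run parallel, between -1.29 and -1.13, from different heights.

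The promoter windows of the members with the widest differences are shown so that the 2 sides can be set side by side, with Hoxb1 added for the Hox and Pbx motif it holds. Each is the 250 bases before the annotated start, from RefSeq on GRCm38.p6, 5′ to 3′ on the gene's strand, and Six4 is given at the more upstream of its 2 starts. The promoter sequences covered 19 of the 29 genes, at 21 starts, and Hoxb6, Hoxb7 and Dlx3 were not among them. Capitals mark matches, on either strand, to TGATNNAT (a joint Hox and Pbx site), TTTATG (a Cdx site), TGACAG (a Meis site) and TAATTA (a homeodomain core).
Six2 (chr17:85688255-85688504, - strand): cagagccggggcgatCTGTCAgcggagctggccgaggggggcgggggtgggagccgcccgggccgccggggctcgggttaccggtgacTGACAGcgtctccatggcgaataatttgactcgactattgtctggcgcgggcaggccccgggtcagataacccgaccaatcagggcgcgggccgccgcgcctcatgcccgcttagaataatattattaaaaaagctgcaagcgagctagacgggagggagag
Six4 (chr12:73113426-73113675, - strand): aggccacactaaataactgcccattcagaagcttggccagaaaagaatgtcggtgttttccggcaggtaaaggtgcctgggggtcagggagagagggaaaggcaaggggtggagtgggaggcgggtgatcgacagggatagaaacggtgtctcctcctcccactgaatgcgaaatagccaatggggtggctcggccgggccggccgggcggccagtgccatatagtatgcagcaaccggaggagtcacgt
Hoxa9 (chr6:52227371-52227620, - strand): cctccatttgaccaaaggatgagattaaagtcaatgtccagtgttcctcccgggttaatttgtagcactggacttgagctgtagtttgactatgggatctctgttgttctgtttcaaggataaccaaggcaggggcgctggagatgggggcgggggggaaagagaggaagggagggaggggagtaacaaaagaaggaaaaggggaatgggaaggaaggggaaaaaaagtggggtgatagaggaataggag
Hoxd9 (chr2:74697513-74697762, + strand): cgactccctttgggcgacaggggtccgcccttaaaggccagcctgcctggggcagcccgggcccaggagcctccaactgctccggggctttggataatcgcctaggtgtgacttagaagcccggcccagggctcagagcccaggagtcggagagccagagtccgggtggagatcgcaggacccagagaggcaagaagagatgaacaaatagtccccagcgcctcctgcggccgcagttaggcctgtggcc
Hoxb1 (chr11:96365508-96365757, + strand): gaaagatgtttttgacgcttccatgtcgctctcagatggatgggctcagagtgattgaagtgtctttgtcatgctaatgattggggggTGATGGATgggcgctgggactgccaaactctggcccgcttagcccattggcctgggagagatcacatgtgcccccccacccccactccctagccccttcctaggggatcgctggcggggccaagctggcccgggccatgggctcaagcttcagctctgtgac
Cdx2 (chr5:147307250-147307499, - strand): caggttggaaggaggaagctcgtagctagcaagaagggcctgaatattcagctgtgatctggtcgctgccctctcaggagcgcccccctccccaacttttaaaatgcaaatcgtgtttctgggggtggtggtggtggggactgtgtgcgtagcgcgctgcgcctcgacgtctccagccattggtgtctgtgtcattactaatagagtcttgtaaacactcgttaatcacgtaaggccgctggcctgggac
Msx2 (chr13:53472781-53473030, - strand): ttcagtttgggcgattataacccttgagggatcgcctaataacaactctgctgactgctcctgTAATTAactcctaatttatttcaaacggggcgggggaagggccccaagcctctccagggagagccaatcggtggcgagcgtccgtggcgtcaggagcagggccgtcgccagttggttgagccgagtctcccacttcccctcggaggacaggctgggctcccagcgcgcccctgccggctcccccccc

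A match describes these letters and is not a site. TGACAG stood at 2 places in the Six2 window and nowhere in the Six4 window. Of the 21 member windows 3 held it (Six2, Six5 and Lhx1), and 15.9% of all 32851 windows did. TGATNNAT was in 1 member window, that of Hoxb1, and in 7.7% of all. TAATTA was in 1, that of Msx2, and in 4.8% of all, and TTTATG was in 0, against 10.8% of all. The windows of members had a median GC content of 61.6%, against 52.4% over all.

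Among Hox genes, those of low paralog number leaned higher and those of high number lower in CXCR4+/FLK-1+ cells, with 0 of 12 probe sets past the adjusted threshold. Only 2 of these 12 probe sets, those of Hoxd1 and Hoxd8, had a flag score of 6, against 17 of the 31 members outside Hox. The pattern by position therefore rests mostly on probe sets below that score. The comparison table names 4 genes each of the Hoxa, Hoxb and Hoxd clusters, while the 9 Hoxc genes of the RefSeq gene table were not analysed here. All 4 genes of paralog groups 1 to 4 had a higher mean (median log2 difference 0.50). Of 3 in groups 5 to 8, 1 was higher and 2 were lower (median -0.45), and of 5 in groups 9 to 13, 1 was higher and 4 were lower (median -0.62). By cluster the medians were -0.32 for Hoxa, 0.55 for Hoxb and -0.20 for Hoxd. Over the 12 genes, which share arrays and are not independent, paralog number and difference had a Pearson r of -0.48 and a Spearman rho of -0.57.

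Within each array, the mean log2 ratio of groups 1 to 4 minus that of groups 9 to 13 was 0.15, 1.51 and 1.66 in CXCR4+/FLK-1+ cells, against -0.94, -0.05 and 0.88 in CXCR4-/FLK-1- cells. It was higher in each pair, but CXCR4+/FLK-1+ array 1 lay below CXCR4-/FLK-1- array 3, so the fractions overlapped. The mean gap between fractions was 1.15, and 1.07 without the 2 genes at a flag score of 2. It was 0.70 without CXCR4-/FLK-1- array 1, and the median of groups 1 to 4 was then -0.02. With all arrays the gap came from both ends, with a mean difference of 0.46 for groups 1 to 4 and of -0.68 for groups 9 to 13. Within groups 9 to 13, Hoxa13 and Hoxd13 were at -0.02 and 0.06.

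**Figure D3:**
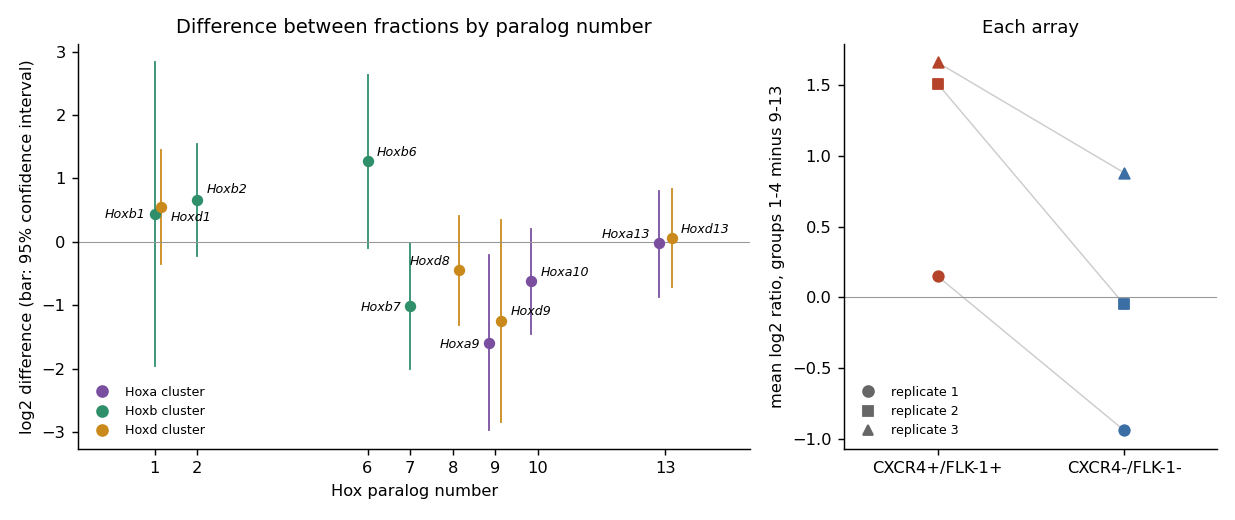
Left, log2 difference between fractions (y axis) of 11 Hox genes by paralog number (x axis), with 95% confidence intervals. Right, mean log2 ratio of paralog groups 1 to 4 minus groups 9 to 13 on each array; it is higher in CXCR4+/FLK-1+ cells in each of the 3 pairs, with overlap between 0.15 and 0.88.

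Hoxb1, an anterior gene that patterns the hindbrain and responds to retinoic acid, followed the replicate more than the fraction. It had ratios of 0.308, 0.998 and 2.961 on the CXCR4+/FLK-1+ arrays, against 0.17, 1.0 and 2.151 on the CXCR4-/FLK-1- arrays. It was lowest on the replicate 1 array of either fraction, with a log2 difference between fractions of 0.44 (SE 1.04). Hoxb2, the hindbrain gene next to Hoxb1, had 1.262, 1.167 and 1.83, against 0.594, 1.0 and 1.153. Its groups did not overlap (log2 difference 0.66, SE 0.383; limma adjusted p = 1.0, and adjusted p = 0.399 with the block). Hoxd1 had 0.995, 2.346 and 1.593, against 1.0, 0.97 and 1.215, a log2 difference of 0.55 (SE 0.391) that rests mostly on array 2.

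In the middle of the clusters, the neighbours Hoxb6 and Hoxb7, both trunk genes, went opposite ways. Hoxb6 had ratios of 2.777, 6.077 and 2.772 on the CXCR4+/FLK-1+ arrays, against 1.0, 3.603 and 0.927 on the CXCR4-/FLK-1- arrays, higher in each pair. Its log2 difference was 1.27 (SE 0.592; limma adjusted p = 1.0, and adjusted p = 0.233 with the block). Hoxb7 had 0.387, 0.579 and 0.533, against 1.0, 1.633 and 0.593. The groups did not overlap, though pair 3 differed by only -0.15. The log2 difference was -1.01 (SE 0.433; limma adjusted p = 1.0). Both had a flag score of 4, and the Hoxb7 probe set is of the _s_at kind, whose probes can match transcripts of more than 1 gene. Hoxd8 had 0.856, 0.797 and 0.846, against 0.825, 1.79 and 1.0, a log2 difference of -0.45 (SE 0.376) that rests on CXCR4-/FLK-1- array 2.

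Among posterior genes the paralogs Hoxa9 and Hoxd9 had the widest differences. Hoxa9, a factor of blood stem cells and the posterior trunk, had ratios of 0.518, 0.122 and 0.271 on the CXCR4+/FLK-1+ arrays, against 1.135, 1.0 and 0.411 on the CXCR4-/FLK-1- arrays. Each pair was lower, and only CXCR4+/FLK-1+ array 1 lay above CXCR4-/FLK-1- array 3. The log2 difference was -1.59 (SE 0.604; limma adjusted p = 0.945), at a flag score of 2. Hoxd9 had 0.148, 0.402 and 0.485, against 0.269, 1.41 and 1.0, lower in each pair. Its groups overlapped through the low CXCR4-/FLK-1- array 1 (log2 difference -1.24, SE 0.692; limma adjusted p = 1.0, and adjusted p = 0.254 with the block).

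Hoxa10, next to Hoxa9 and known from the uterus and hind trunk, had ratios of 0.773, 0.782 and 0.429 on the CXCR4+/FLK-1+ arrays, against 1.066, 0.892 and 1.0 on the CXCR4-/FLK-1- arrays. These groups did not overlap (log2 difference -0.62, SE 0.358; limma adjusted p = 1.0). The terminal genes Hoxa13 and Hoxd13, which shape digits and the genital tubercle, showed no lean. Hoxa13 had 0.817, 1.052 and 1.269, against 1.439, 0.794 and 1.0, with a log2 difference of -0.02 (95% confidence interval -0.86 to 0.81). Hoxd13 had 1.44, 0.916 and 0.934, against 0.94, 1.16 and 1.0, with 0.06 (-0.71 to 0.83). The flag score was 2 for Hoxa13 and 5 for Hoxd13, so for Hoxa13 a flat ratio does not show an unchanged transcript.

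Cdx2, which patterns the posterior axis and also marks trophectoderm, was lower in CXCR4+/FLK-1+ cells by nearly the same factor in each pair. Its ratios were 0.173, 0.41 and 0.674 on the CXCR4+/FLK-1+ arrays, against 0.411, 1.0 and 1.478 on the CXCR4-/FLK-1- arrays. The groups overlapped because both fractions were low in replicate 1 and high in replicate 3, while the pairs stood at -1.25, -1.29 and -1.13. It was 2.33-fold lower (95% confidence interval from 0.865-fold to 6.29-fold lower, log2 difference -1.22, SE 0.624; limma adjusted p = 1.0). With the replicate block the SE was 0.189 (limma adjusted p = 0.196 over all probe sets). Among the 14140 probe sets with a flag score of 6, tested with the block, its adjusted p was 0.0727 (limma), and 5 of those probe sets (0.0354%) passed. At an unadjusted p under 0.05, 4 of the 19 members among them were higher and 4 lower, against 7.52% and 7.62% of those probe sets. That combination was chosen after seeing the data.

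Cdx4, a Cdx gene of the posterior axis and of embryonic blood formation, pointed the other way. Its ratios were 0.561, 1.106 and 1.344 on the CXCR4+/FLK-1+ arrays, against 0.183, 1.014 and 1.0 on the CXCR4-/FLK-1- arrays. Each pair was higher, at 1.62, 0.13 and 0.43, and the groups overlapped (log2 difference 0.72, SE 0.694; limma adjusted p = 1.0). Without CXCR4-/FLK-1- array 1 the difference was -0.10. No test of Cdx2 against Cdx4 was made.

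Pbx genes encode the TALE partners of Hox proteins, and Pbx2 and Pbx3 showed no difference beyond their spread. The Pbx2 probe set standing for the gene had ratios of 1.001, 1.139 and 1.099 on the CXCR4+/FLK-1+ arrays, against 0.404, 1.787 and 1.0 on the CXCR4-/FLK-1- arrays (log2 difference 0.27, SE 0.525), and its other 2 were at 0.30 and -0.22. That of Pbx3 had 0.868, 0.585 and 1.281, against 1.634, 1.0 and 0.636 (-0.23, SE 0.461), while its other 2 were at 0.45 and 0.48 and higher in each pair. Meis1, a TALE cofactor of Hox proteins in blood and heart progenitors, was read by 3 probe sets at flag scores of 2 or 3. The one standing for it had 1.544, 0.553 and 0.595, against 1.208, 0.306 and 1.0 (0.15, SE 0.618). Its other 2 pointed opposite ways, at -0.67 and 0.47.

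**Figure D4:**
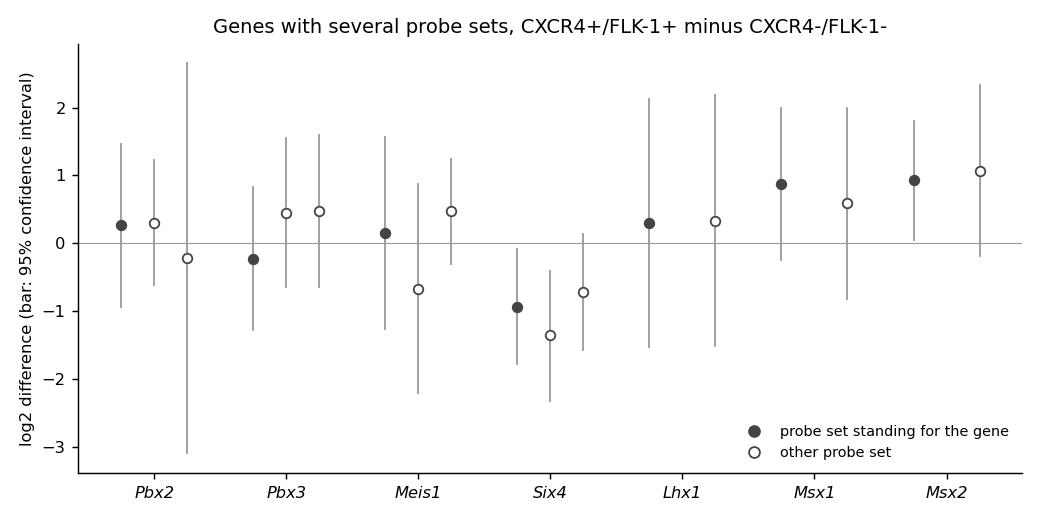
Log2 difference between fractions (y axis) of each probe set of 7 genes with several, with 95% confidence intervals; the filled point stands for the gene. All probe sets of Six4, Lhx1, Msx1 and Msx2 share a sign, and those of Pbx2, Pbx3 and Meis1 do not.

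Iroquois genes pattern heart and neural tissue. Irx3 had ratios of 0.458, 0.907 and 1.237 on the CXCR4+/FLK-1+ arrays, against 0.671, 1.0 and 1.975 on the CXCR4-/FLK-1- arrays. Each pair was lower, and the groups overlapped (log2 difference -0.46, SE 0.522; limma adjusted p = 1.0). The difference was -0.05 without CXCR4+/FLK-1+ array 1, -0.03 without CXCR4-/FLK-1- array 3 and -0.81 without CXCR4-/FLK-1- array 1. Its neighbour Irx5 had 0.833, 1.225 and 1.977, against 1.0, 0.857 and 1.986 (0.08, 95% confidence interval -0.98 to 1.15). Irx1 had 0.932, 1.221 and 1.453, against 1.0, 0.941 and 1.336 (0.13, -0.64 to 0.91). The family's median was 0.08, and -0.24 to 0.30 with 1 array left out.

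Both Msx genes, which BMP signalling switches on in mesoderm and limb, leaned higher. Msx2 was read by 2 probe sets with a flag score of 6. The one standing for the gene had ratios of 2.878, 1.437 and 1.427 on the CXCR4+/FLK-1+ arrays, against 1.052, 1.0 and 0.817 on the CXCR4-/FLK-1- arrays, with no overlap (log2 difference 0.93, SE 0.383; limma adjusted p = 0.984). The other had 0.958, 2.649 and 1.839, against 0.392, 1.275 and 1.0, and overlapped (1.07, SE 0.553; limma adjusted p = 1.0, and adjusted p = 0.215 with the block). In both, each of the 3 pairs was higher. Msx1 had 1.33, 2.43 and 1.369, against 0.476, 1.509 and 1.0 (0.87, SE 0.489; limma adjusted p = 1.0), by a probe set of the _s_at kind. Its second probe set, not of that kind, was at 0.59, with pairs at 1.3, 0.54 and -0.08.

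Dlx3, a factor of placenta and skin, had the widest difference of all members and one of the widest errors. Its ratios were 8.659, 20.21 and 6.547 on the CXCR4+/FLK-1+ arrays, against 1.0, 17.13 and 0.813 on the CXCR4-/FLK-1- arrays, at a flag score of 2. CXCR4-/FLK-1- array 2 lay among the CXCR4+/FLK-1+ values, so the groups overlapped, and the pairs stood at 3.11, 0.24 and 3.01. The log2 difference was 2.12 (SE 1.08; limma adjusted p = 1.0), and without that array it was 3.54.

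Lhx1, a LIM factor of the head organiser and the kidney, was read alike by both of its probe sets. The one standing for it had ratios of 0.517, 1.008 and 2.539 on the CXCR4+/FLK-1+ arrays, against 0.311, 1.0 and 2.276 on the CXCR4-/FLK-1- arrays. The second had 0.524, 0.952 and 2.82, against 0.317, 1.0 and 2.234. The log2 differences of 0.30 (95% confidence interval -1.53 to 2.13) and 0.33 were small beside the steps between replicates.

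Those steps were a feature of many members. Of the sum of squares of Hoxb1 over the 6 arrays, 96.3% lay between replicate numbers and 2.3% between fractions. For Lhx1 the shares were 96.0% and 2.0%. Hoxb1 and Lhx1 were lowest in replicate 1 and highest in replicate 3 of both fractions, and centring each array on its median left their replicate shares at 94.6% and 93.4%. At the other end stood Six2, with 86.8% between fractions, Six4 with 68.1% and Msx2 with 63.2%. After the centring Six2 had 89.9% and Six4 85.3% between fractions, while Msx2 had 41.6%, against 47.3% between replicates. The share between replicates was the larger for 18 of the 29 genes (62.1%) and for 79.5% of all named genes. The median share between fractions was 32.1% for members and 11.1% for all named genes.

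**Figure D5:**
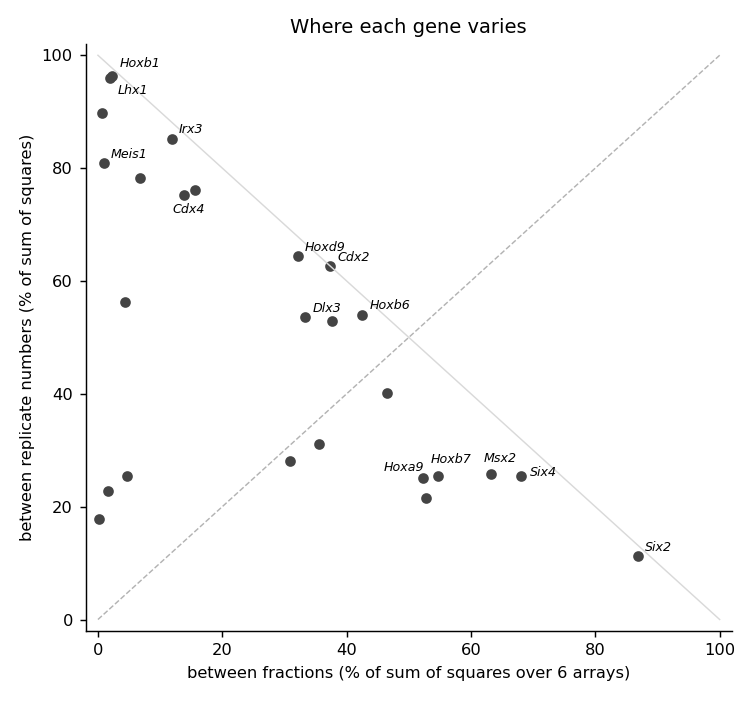
Share of each gene's sum of squares over the 6 arrays that lies between fractions (x axis) and between replicate numbers (y axis), in percent, for 26 of the 29 genes. Points above the dashed line (17 of 26) varied more between replicates, with Hoxb1 and Lhx1 at the top left and Six2 at the lower right.

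Partners and regulators of these families were described from lists, each gene by 1 probe set, beside backgrounds of 1.6% of all named genes higher and 3.34% lower at an unadjusted limma p under 0.05. With the replicate block these backgrounds were 5.47% and 7.11%. In every list 0 genes passed the adjusted threshold in either fit. Genes named for the block alone were picked after their values were seen. Of 4 measured partners of Six-family proteins 0 were past the unadjusted threshold, with a median log2 difference of 0.31. Eya1, a coactivator of such proteins, had ratios of 1.583, 1.972 and 1.86 on the CXCR4+/FLK-1+ arrays, against 0.339, 1.474 and 1.0 on the CXCR4-/FLK-1- arrays (1.18, SE 0.534; limma adjusted p = 1.0), without overlap, and with the block it was the 1 gene of this list past the unadjusted threshold. Eya3 was at 0.40. Of 10 LIM partners 2 were higher and 1 was lower, with a median of -0.21. Lmo1, a LIM-only protein gene, had 4.478, 8.312 and 4.309, against 0.649, 1.707 and 1.0 (2.39, SE 0.459; limma adjusted p = 0.443). Ssbp2, whose protein stabilises Ldb complexes, was at -1.67 (SE 0.452).

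Of 8 measured genes of retinoic acid metabolism and signalling, which acts on anterior Hox genes, 2 were higher and 0 lower, with a median of -0.05. They were the binding protein gene Crabp1, with ratios of 1.714, 2.519 and 2.491 on the CXCR4+/FLK-1+ arrays, against 0.345, 1.421 and 1.0 on the CXCR4-/FLK-1- arrays (1.49, SE 0.533), and the degrading enzyme gene Cyp26a1 (1.45, SE 0.611). With the block 2 were higher and 1 lower, the retinol dehydrogenase gene Rdh10 (-0.72). Of 17 primitive streak and posterior mesoderm genes 1 was higher (Cyp26a1, which is in both lists) and 3 were lower, with a median of -0.01. With the block 5 were higher (Cyp26a1, Eomes, Mesp1, Mixl1 and Wnt5a) and 7 lower (Nodal, T, Fgf8, Fgf4, Dll1, Wnt8a and Fst). Nodal was at -1.60, and T, which encodes brachyury, had 0.178, 0.389 and 0.651, against 0.657, 1.0 and 1.103 (-1.34, SE 0.505). Of 19 chromatin regulators of Hox genes 0 were higher and 1 lower, the Polycomb gene Phc1 (-1.53, SE 0.528), with Cbx7 at 0.59 and a median of 0.0. Of 6 TALE genes outside the member families 0 passed, with a median of -0.34, Pknox1 at -0.47 and Mkx at -0.62. With the block 2 of them were lower, Mkx and Tgif1 (-0.58). The 2 measured ParaHox and Evx list genes, Gbx2 (-0.61) and Evx1 (0.13), did not pass either.

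Markers of other cell types also differed between the fractions, with 0 past the adjusted threshold. All 8 pluripotency markers had lower means in CXCR4+/FLK-1+ cells, 6 of them at an unadjusted limma p under 0.05. Their mean log2 ratio was -1.22, -1.47 and -1.17 on the CXCR4+/FLK-1+ arrays, against -0.17, -0.04 and 0.04 on the CXCR4-/FLK-1- arrays. Of 11 trophoblast markers listed, which bear on Cdx2 and Dlx3, 6 were measured, and Elf5, Krt7, Ascl2, Tpbpa and Esx1 were not. Of the 6 measured, 5 had higher means, among them Eomes, which is also in the primitive streak list. The remaining 1, Tfap2c, was lower at an unadjusted p under 0.05 (-1.65). With the block 4 were also higher at that threshold (Eomes, Gata3, Krt8 and Hand1). Their mean log2 ratio was -0.35, 0.88 and 0.51, against -1.77, 0.63 and 0.07, lowest on the replicate 1 arrays. Of 7 cardiac markers 4 were higher and 1 was lower, with a mean log2 ratio of 0.75, 1.13 and 1.21, against -0.18, 0.51 and -0.32. The 9 endothelial and blood (Kdr among them), 7 extraembryonic endoderm and 3 neural markers had median differences of -0.08, -0.10 and -1.03. In the same order 3, 2 and 0 of them were higher and 1, 0 and 0 lower, and with the block 4, 2 and 0 higher and 3, 1 and 1 lower. Ratios hold no level, so whether a marker is near 0 is unknown, and the part of these cell types in the homeobox differences was not tested.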

How the data were processed

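Ratio values and the comparison table (flag score, fold change, p-value, gene name) were used as the authors deposited them, from 1 Affymetrix array per sample. The linear ratio of each probe set had been scaled by the authors to a median of 1 over the CXCR4-/FLK-1- arrays, which held within 0.005 for 100.0% of probe sets. The fold in the authors' deposited table lay within 1% of the ratio of geometric means for 100.0% of them. The flag score and p-value are the authors' own, and what software made or summarised them is not stated in the sources used. Signal over background is unknown, and precision is limited by 3 arrays per group.

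No pseudocount was added before log2. The 22526 probe sets of the comparison table, after removing 58 control probe sets, were fitted with limma 3.58.1 in R 4.3.3 (two-sided moderated test, Benjamini-Hochberg over all, threshold 0.05). The fitting was tested on simulated data. Older gene names were updated through RefSeq, and 12290 named genes resulted. Where a gene had several probe sets, 1 stood for it, picked by flag score and then by the plainest identifier. Values were given for every member, genes with an unadjusted p under 0.05 or non-overlapping groups with a log2 difference of at least 1, and the widest of each family, were plotted by array, and of each list the 2 genes with the smallest p were named. The members and lists were chosen with earlier results of these data known. Counts and medians cover all 29 member genes, of which 3 are not reported singly here.

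The replicate numbers come from the labels. Same-numbered arrays deviated together from their group means, with correlations over all probe sets of 0.487, 0.34 and 0.206 for numbers 1 to 3. The numbers were therefore taken to pair the samples. However, CXCR4+/FLK-1+ array 3 correlated with CXCR4-/FLK-1- array 2 at 0.205, and CXCR4+/FLK-1+ array 2 with CXCR4-/FLK-1- array 3 at 0.215. Pairs 2 and 3 are thus weakly backed, and the results by pair and by block rest on them. Alternatives were the replicate block, array weights, other scalings, pseudocounts of 0.25 and 1, a flag score filter, another variance prior, all probe sets of the value table, and leaving out arrays.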

Additional observations from a re-analysis of the deposited data

How the results depend on the processing

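Over 19 settings, 16 of the 26 genes reported singly kept the direction of their difference, Six2, Six4, Msx1, Msx2, Cdx2, Hoxa9, Hoxd9, Hoxb6 and Hoxb7 among them, and 32 of 445 gene and setting pairs reversed. Several settings cannot change a gene's difference: the replicate block, the other variance prior, and those that change only which probe sets are tested. These counts therefore overstate how steady the directions are. The 0 member probe sets past the adjusted threshold became 1 with array weights and stayed 0 without any single array. Counts at an unadjusted p under 0.05 are given with the share of all probe sets tested in brackets. The 2 higher (1.38%) became 7 with the replicate block (5.02%), 7 with array weights (6.55%) and 4 without both arrays of replicate 1 (3.61%). With flag score 6, of 19 members, 4 were higher with the block (7.52%) and 1 without it (1.21%). The count was 1 with all probe sets of the value table (2.63%) or by the authors' deposited p-values (1.35%). The 5 lower (3.49%) became 8 with the replicate block (7.24%), 8 with array weights (8.17%) and 3 with all probe sets (2.87%). With flag score 6 only, 3 of 19 were lower (2.36%). The count was 1 with a trend and robust prior (1.33%) or by the authors' deposited p-values (1.98%). The block changed no call at the adjusted threshold, and it moved unadjusted counts of the partner and marker lists, most in the primitive streak list (1 higher and 3 lower without it, 5 and 7 with it) and the trophoblast list (0 higher without it, 4 with it). Leaving out 1 array gave 0 to 5 higher, where 0.639% to 2.06% of all probe sets were. Of members, 0 were higher without CXCR4-/FLK-1- array 3 (1.34%), 5 without CXCR4-/FLK-1- array 2 (2.06%) and 1 without CXCR4+/FLK-1+ array 2 (0.639%). The same fits gave 2 to 5 lower. There were 2 without CXCR4+/FLK-1+ array 2 (2.33%) or CXCR4-/FLK-1- array 2 (2.09%), and 3 without CXCR4+/FLK-1+ array 1 (2.65%).

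The Hoxd median of -0.20, over 4 genes, was -0.46 without both arrays of replicate 1. With flag score 6 only, with or without the block, it was 0.05, but over 2 genes, Hoxd1 and Hoxd8, whose own differences did not change. The Msx median of 0.90 was 0.50 with a pseudocount of 1. That of Hox groups 9 to 13 was -1.0 with array weights and -0.26 with a pseudocount of 1. Leaving out 1 array moved the medians over -0.11 to 1.0 for Hoxb, -0.35 to 0.01 for Hoxd, -0.41 to 0.04 for the Six-family genes, -0.24 to 0.30 for Irx, -0.77 to -0.34 for groups 9 to 13, -0.49 to 0.01 for all Hox genes, -0.05 to 0.39 for members outside Hox and -0.17 to 0.34 for all members. The gap between groups 1 to 4 and 9 to 13 was 0.70 to 1.63 over the same fits and 0.47 with a pseudocount of 1.

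Array weights gave -0.09 for Pbx2, 0.37 for Hoxa13, -0.16 for Hoxd13, 0.51 for Pbx3 and -0.13 for Meis1. Quantile normalization gave 0.26 for Hoxa13, -0.01 for Hoxd13 and 0.02 for Pbx3. Without both arrays of replicate 1 they were -0.26 for Pbx2, 0.37 for Hoxa13, -0.22 for Hoxd13 and 0.12 for Pbx3. The mean over probe sets was 0.23 for Pbx3 and -0.01 for Meis1. Leaving out 1 array gave -0.10 to 1.14 for Cdx4, -0.22 to 0.21 for Hoxa13, -0.60 to 1.27 for Hoxb1, -0.15 to 0.17 for Hoxd13, -0.02 to 0.30 for Irx1, -0.24 to 0.45 for Irx5, -0.46 to 0.98 for Lhx1, -0.46 to 0.53 for Meis1, -0.31 to 0.76 for Pbx2 and -0.56 to 0.12 for Pbx3. The median of all probe sets shifted to 0.183 without CXCR4+/FLK-1+ array 1, -0.149 without CXCR4-/FLK-1- array 1 and 0.113 without CXCR4-/FLK-1- array 2. The cause of these changes was not tested, and 3 arrays per group limit what can be called.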

Other observations

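Some transcripts related to the families carry names outside the rule and were not counted as members. Hoxd3os1, an antisense transcript of the Hoxd cluster, had ratios of 0.28, 0.45 and 0.202 on the CXCR4+/FLK-1+ arrays, against 1.052, 1.0 and 0.377 on the CXCR4-/FLK-1- arrays. Each pair was lower, and the groups overlapped between CXCR4+/FLK-1+ array 2 and CXCR4-/FLK-1- array 3. The log2 difference was -1.32 (SE 0.503; limma adjusted p = 0.945), at a flag score of 2. Lhx9, a LIM factor of the gonad and brain listed under an older name, had 0.275, 1.27 and 2.547, against 0.213, 1.0 and 2.961 (0.17, SE 1.05), and stepped with the replicate number as Lhx1 did. The antisense transcripts Dlx6os1 and Lhx1os had differences of 0.33 (SE 0.54) and -0.07 (SE 0.333).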
